A study of Homo sapiens with 12 samples.

Results

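The response of MV4-11 cells to 2 drugs was followed in 3 RNA libraries, chosen by their cell line label out of 12 libraries from 4 lines. MV4-11 is a human acute myeloid leukaemia line that carries a KMT2A gene fusion and an activating internal duplication in the receptor gene FLT3. One library each was labelled as treated with 10 µM pioglitazone, with 10 µM darglitazone or with the solvent DMSO for 12 h, and no other agent or allele is named for any of them. The remaining 9 libraries are the same 3 treatments of MOLM-14, OCI-AML3 and KG-1a cells. With 1 library per treatment, nothing within MV4-11 has a replicate check, no test was made there, and both drugs are read against the same DMSO library.

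Pioglitazone and darglitazone are thiazolidinediones, which bind and activate the nuclear receptor PPARγ. They share the thiazolidinedione ring and differ in the rest of the molecule, which ends in a pyridine ring in pioglitazone and in a phenyl-substituted oxazole in darglitazone. PPARs pair with RXR receptors and are known for raising genes of fat storage and fatty acid oxidation. Cholesterol and fatty acid synthesis genes are controlled by another family, the SREBP transcription factors, which are held back by INSIG proteins while sterols are plentiful. Another programme named below, that of NRF2, protects cells from oxidants and electrophiles and includes haem breakdown and iron storage.

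The deposited values were estimated counts per transcript, summed here per gene and expressed as CPM, counts scaled to a common library size by TMM. Totals were 7.53 M in the pioglitazone library, 32.2 M in the darglitazone library and 8.97 M in the DMSO library, so the precision of every ratio is set mostly by the shallower pioglitazone and DMSO libraries. A count of 3, used as the floor of detection, was worth 0.398, 0.0932 and 0.334 CPM in the pioglitazone, darglitazone and DMSO libraries. Of 15424 genes tested across the lines, 10179 averaged at least 5 CPM over the MV4-11 libraries and were used here. That average includes the libraries being compared, so a gene can enter through a single high library. A gene is counted as higher or lower when it differed 2-fold, and intervals beside log2 ratios are exact 95% counting intervals that cover counting error only.

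Genes chosen as markers of the line were present in each library. With DMSO several of them were higher in another line, so their presence alone does not identify MV4-11. FLT3 stood at 521 CPM with pioglitazone, 410 CPM with darglitazone and 323 CPM with DMSO, and HOXA9, a homeobox gene that KMT2A fusions keep active, at 42.2, 30.8 and 29.9 CPM in the same order. MEIS1, PBX3, HOXA10, CD33, CSF1R, LYZ, SPI1 and CEBPA each had at least 35.6 CPM in every MV4-11 library. The monocyte antigen CD14 had 0 counts with either drug and 1 count with DMSO. Of 15 lymphoid markers, 7, 3 and 7 were at 0 with pioglitazone, darglitazone and DMSO, and their summed level was 81.9, 42.7 and 53.1 CPM, while 18 erythroid and megakaryocyte markers summed to 38, 35.4 and 37.8 CPM with 11, 8 and 12 members at 0. Genes specific to another line had at least 30 CPM in each of its libraries and at most 5% of its mean level in MV4-11 DMSO. The DMSO percentage is thus capped by the choice of genes, and the drug percentages are not. Genes specific to MOLM-14 stood at a median of 0.704%, 2.02% and 2.68% of their MOLM-14 level. Those specific to OCI-AML3 stood at 0.625%, 0.963% and 2.61%, both highest with DMSO. For KG-1a the values were 0.879%, 1.36% and 0.966%, and the part of such reads in the results was not tested.

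Sequences upstream of the genes that carry the lipid and cell cycle results are shown first. They are the 250 bases before the RefSeq start in build GRCh38.p14. In the first set, capitals mark CCAAT on either strand, the letters of the CCAAT box. The set holds the 2 cholesterol synthesis genes with the largest pioglitazone ratio that have a promoter in the table (DHCR7 and MSMO1), and the response markers SCD and HMGCS1.
DHCR7 chr11:71448394-71448643, minus strand: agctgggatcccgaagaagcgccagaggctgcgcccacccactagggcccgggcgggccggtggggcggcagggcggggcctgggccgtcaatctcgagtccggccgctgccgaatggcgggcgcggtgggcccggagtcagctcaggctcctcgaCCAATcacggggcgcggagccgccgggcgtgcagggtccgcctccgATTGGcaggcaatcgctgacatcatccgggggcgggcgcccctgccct
MSMO1 chr4:165327419-165327668, plus strand: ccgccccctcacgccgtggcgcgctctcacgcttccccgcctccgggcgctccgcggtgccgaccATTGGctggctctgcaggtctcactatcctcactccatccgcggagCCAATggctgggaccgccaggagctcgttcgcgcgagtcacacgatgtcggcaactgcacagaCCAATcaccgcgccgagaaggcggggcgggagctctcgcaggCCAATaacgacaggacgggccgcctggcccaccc
SCD chr10:100346983-100347232, plus strand: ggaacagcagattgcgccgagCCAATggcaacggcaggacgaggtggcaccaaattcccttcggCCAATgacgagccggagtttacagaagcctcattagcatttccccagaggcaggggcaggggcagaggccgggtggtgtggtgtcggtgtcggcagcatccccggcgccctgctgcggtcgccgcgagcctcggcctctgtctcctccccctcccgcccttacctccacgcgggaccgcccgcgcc
HMGCS1 chr5:43313413-43313662, minus strand: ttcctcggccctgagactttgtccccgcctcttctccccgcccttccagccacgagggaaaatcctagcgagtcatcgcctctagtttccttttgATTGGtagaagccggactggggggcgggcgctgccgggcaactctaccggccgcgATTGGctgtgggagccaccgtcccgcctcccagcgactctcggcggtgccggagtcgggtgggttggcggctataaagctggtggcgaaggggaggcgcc

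Of 24 cholesterol synthesis genes, 19 had a promoter in the table, and 14 of those held CCAAT (73.7%) and 16 held the GC box GGGCGG (84.2%). Among all 35116 promoters of that length the shares were 32% and 42.6%. The GC box was as common in other lists, at 86.7% of matched NRF2 target promoters and 80% of G2 and mitosis promoters. Across the other lists searched its share ran from 20.9% for histone genes to 88.9% for sterol sensing and uptake genes. The sterol element letters TCACNCCAC were in 0 of the 19 and in 0.883% of all promoters. The next set holds the 2 G2 and mitosis genes with the lowest pioglitazone ratio among those whose promoter holds TTTGAA. The presence of these letters was thus a condition of the choice. Both genes stood below DMSO with either drug. Capitals mark TTTGAA on either strand, the letters of the CHR element found in front of many mitotic genes.
CDC20 chr1:43358731-43358980, plus strand: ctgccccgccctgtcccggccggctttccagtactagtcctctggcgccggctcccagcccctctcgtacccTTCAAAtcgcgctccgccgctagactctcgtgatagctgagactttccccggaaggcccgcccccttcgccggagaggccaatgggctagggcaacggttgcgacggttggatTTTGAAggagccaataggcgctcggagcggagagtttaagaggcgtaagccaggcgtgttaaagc
MKI67 chr10:128126424-128126673, minus strand: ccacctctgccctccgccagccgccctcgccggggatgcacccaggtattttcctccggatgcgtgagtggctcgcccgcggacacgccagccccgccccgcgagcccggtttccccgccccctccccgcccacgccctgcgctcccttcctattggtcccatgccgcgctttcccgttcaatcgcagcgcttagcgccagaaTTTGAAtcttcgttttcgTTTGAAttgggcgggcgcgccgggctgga

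In MKI67 the second capital run shares 1 base with a CCAAT box on the other strand. TTTGAA was present in 14 of 25 matched promoters of the G2 and mitosis list (56%) and in 13.3% of all promoters, and CCAAT in 20 of the 25 (80%). Of 43 matched promoters of replication-dependent histone genes, 37 held CCAAT (86%). All motifs were searched on both strands, and a match is a run of letters, not a measured binding site.

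Pioglitazone gave the larger response. Against DMSO, 187 of the 10179 genes were 2-fold higher with pioglitazone (1.84%) and 138 were 2-fold lower (1.36%). With darglitazone, 61 genes were 2-fold higher (0.599%) and 50 were 2-fold lower (0.491%). Scaled by total counts in place of TMM, the numbers were 155 higher and 171 lower with pioglitazone, and 52 higher and 66 lower with darglitazone, so the balance of higher and lower depends on the scaling. Set directly against pioglitazone, darglitazone had 108 genes 2-fold higher (1.06%) and 126 genes 2-fold lower (1.24%). The median log2 ratio of all genes was -0.01 for pioglitazone and 0.02 for darglitazone. The middle 90% of genes lay from -0.64 to 0.66 and from -0.45 to 0.52. Of the 10179 genes, 4981 lay above 0 and 5198 below with pioglitazone, and 5389 above and 4790 below with darglitazone. Counts of list members above or below 0 are to be read beside these. Against the shared DMSO library, 31 genes were 2-fold higher with both drugs, 27 were lower with both and 7 were higher with one drug and lower with the other.

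The clearest pattern of the pioglitazone library was in cholesterol synthesis. All 24 genes of the pathway list were measured. With pioglitazone 13 were 2-fold higher and 0 were 2-fold lower, 23 lay above 0, and the median log2 ratio was 1.05. With darglitazone 0 were past 2-fold in either direction and the median was 0.12. Summed over the pathway, the level was 3767 CPM with pioglitazone, 2041 CPM with darglitazone and 1881 CPM with DMSO.

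HMGCS1, the synthase that feeds the pathway (chromosome 5, 43289395 to 43313512, minus strand), had 73.9 CPM with pioglitazone, 25.7 CPM with darglitazone and 28.6 CPM with DMSO. Only the pioglitazone library stood apart. The log2 ratio to DMSO was 1.37 (1.16 to 1.58) for pioglitazone and -0.15 (-0.35 to 0.05) for darglitazone.

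The steps that follow, from mevalonate to squalene, were uneven. MVK, mevalonate kinase, had a pioglitazone log2 ratio of 1.18 and MVD, the decarboxylase, one of 1.52, while PMVK, the kinase that acts between them, had -0.10 (-0.49 to 0.28). IDI1 and FDPS, which make and join the isoprene units, had 0.82 and 0.89, and FDFT1, squalene synthase, had 1.01. Darglitazone ratios of these 6 genes lay between -0.10 for MVK and 0.32 for FDFT1.

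From squalene to cholesterol the pioglitazone ratios were larger. SQLE, squalene epoxidase, had 248 CPM with pioglitazone, 117 CPM with darglitazone and 107 CPM with DMSO. LSS, lanosterol synthase, had 249, 104 and 96 CPM in the same order. DHCR7, the last reductase of the route (chromosome 11, 71428193 to 71452868, minus strand), had 143, 43.7 and 37.8 CPM. DHCR7 held the largest pioglitazone ratio of the list, 1.92 (1.75 to 2.10), against 0.21 (0.04 to 0.38) for darglitazone.

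MSMO1, which removes methyl groups from sterols, and TM7SF2, a sterol reductase, had pioglitazone log2 ratios of 1.57 and 1.56, with CYP51A1, another demethylase, at 1.16. The lowest were LBR at 0.04, a nuclear envelope protein that also reduces sterols, and PMVK. SC5D, a desaturase, and HSD17B7, a reductase, marked the extremes for darglitazone, with log2 ratios of 0.69 (0.26 to 1.18) and -0.51 (-0.83 to -0.19).

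**Figure D1:**
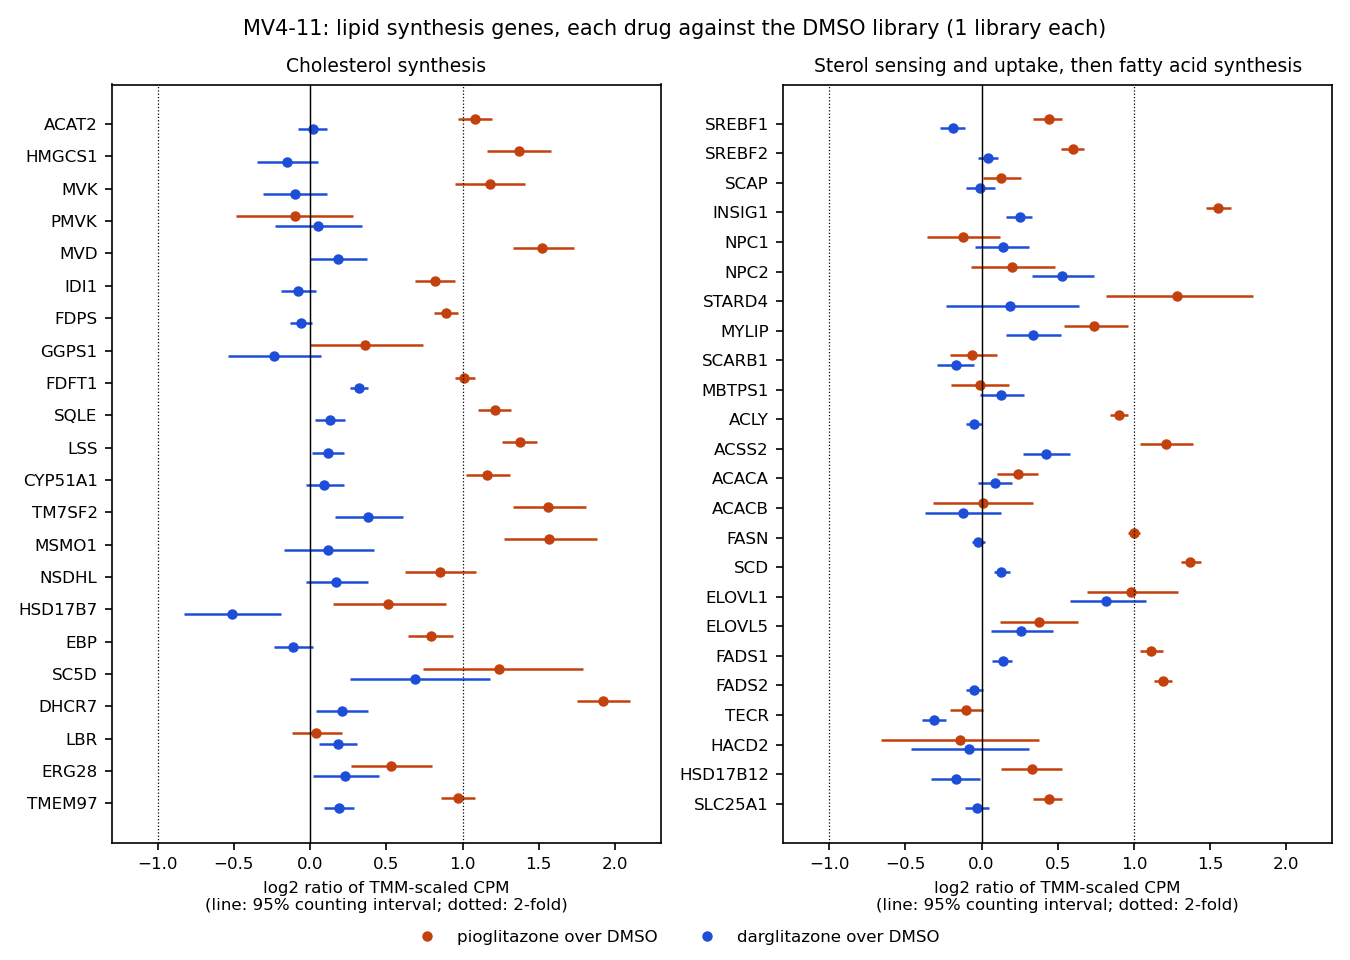
Log2 ratio of TMM-scaled CPM in MV4-11 for 22 cholesterol synthesis genes (left) and for 24 genes of sterol sensing, uptake and fatty acid synthesis (right), with orange points for pioglitazone over DMSO and blue points for darglitazone over DMSO. Horizontal lines are 95% counting intervals and dotted lines mark 2-fold: 12 of the 22 cholesterol genes drawn lie past it with pioglitazone, led by DHCR7 at 1.92, and 0 with darglitazone.

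Genes that sense and take up sterols were less uniform, with 3 of 12 measured members 2-fold higher with pioglitazone. INSIG1, which retains the SREBP complex when sterols are present and is itself an SREBP target, had 459 CPM with pioglitazone, 185 CPM with darglitazone and 156 CPM with DMSO, a pioglitazone log2 ratio of 1.55 (1.47 to 1.64). STARD4, a sterol carrier, had 14.5, 6.77 and 5.91 CPM in the same order, a pioglitazone log2 ratio of 1.28. SREBF2 and SREBF1, the SREBP genes, had 0.60 and 0.44, and the escort gene SCAP had 0.13. With darglitazone 0 of the 12 were past 2-fold, and the list medians were 0.32 for pioglitazone and 0.09 for darglitazone.

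Fatty acid synthesis followed the same division between the drugs. Of 14 measured genes, 4 were 2-fold higher with pioglitazone and 0 with darglitazone, with medians of 0.67 and -0.03. SCD, which puts the first double bond into saturated fatty acids (chromosome 10, 100347124 to 100364834, plus strand), had 837 CPM with pioglitazone, 354 CPM with darglitazone and 323 CPM with DMSO. Its log2 ratios were 1.37 (1.31 to 1.44) and 0.13 (0.08 to 0.19). The other 3 were ACSS2, which makes acetyl-CoA from acetate, at 1.21, and the desaturases FADS2 at 1.19 and FADS1 at 1.11.

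FASN, fatty acid synthase, had 1586 CPM with pioglitazone, 784 CPM with darglitazone and 795 CPM with DMSO, a log2 ratio of 1.0 (0.96 to 1.04) that rounds to the 2-fold mark and fell short of it. ACLY, which makes cytosolic acetyl-CoA, had 0.90, whereas the acetyl-CoA carboxylases ACACA and ACACB had 0.24 and 0.01. ELOVL1, an elongase, was the member with the largest darglitazone ratio, 0.82 (0.58 to 1.08), beside 0.98 for pioglitazone. LXR target genes, which export and remodel lipids when oxysterols build up, had a pioglitazone median of 0.78 over 6 measured genes, with 0 past 2-fold. Among them the exporter ABCA1 had 49.8, 27.2 and 28.4 CPM with pioglitazone, darglitazone and DMSO.

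Set against each other without the DMSO library, the drugs differed in these lists by unequal amounts. Medians of darglitazone over pioglitazone were -0.27 for sterol sensing and uptake, -0.48 for fatty acid synthesis and -0.44 for LXR targets. The log2 ratio of darglitazone over pioglitazone had a median of -0.93 over the cholesterol genes, with 11 of 24 at least 2-fold lower with darglitazone. It was -1.71 (-1.83 to -1.60) for DHCR7, -1.52 (-1.68 to -1.37) for HMGCS1, -1.31 (-1.37 to -1.25) for INSIG1 and -1.24 (-1.29 to -1.20) for SCD. Dose and time were the same for both drugs.

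Receptors and targets of the drugs' own class differed less than the sterol genes. PPARG, the receptor the class is known for, had 2 counts with pioglitazone, 14 counts with darglitazone and 5 counts with DMSO. Scaled for depth these were 0.259, 0.427 and 0.518 CPM. FABP4 and PDK4, textbook PPAR targets, had 0 counts in all 3 libraries, which allows at most the floors given above, and ANGPTL4 had 0, 2 and 0 counts. PPARD, the receptor of the broadly expressed type, had 20.4 CPM with pioglitazone, 12.0 CPM with darglitazone and 9.64 CPM with DMSO, a pioglitazone log2 ratio of 1.08 (0.71 to 1.47). It was the 1 gene past 2-fold among 13 measured receptors and cofactors, where darglitazone had 0.

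Of 19 measured PPAR target genes, 1 was 2-fold higher with either drug, the lipid droplet coat gene PLIN2, and the list medians were 0.25 for pioglitazone and 0.24 for darglitazone. PLIN2 (chromosome 9, 19108375 to 19149290, minus strand) had 25.5 CPM with pioglitazone, 17.2 CPM with darglitazone and 7.15 CPM with DMSO, so both drug libraries were above DMSO. The log2 ratios were 1.82 (1.43 to 2.25) and 1.25 (0.90 to 1.65). CPT1A, which brings fatty acids into mitochondria, had 307, 312 and 232 CPM in the same order, log2 ratios of 0.41 and 0.43. SLC25A20, the acylcarnitine carrier, had 0.62 and 0.65.

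With pioglitazone 2 targets were 2-fold lower, FABP5, a fatty acid carrier, and TXNIP, an inhibitor of glucose uptake. FABP5, chosen after its values were seen, had 9.83 CPM with pioglitazone, 15.1 CPM with darglitazone and 22.4 CPM with DMSO. TXNIP had 56.5, 130 and 113 CPM, lowest with pioglitazone and slightly above DMSO with darglitazone. The mitochondrial proteins CISD1, CISD2, CISD3, MPC1 and MPC2, to which thiazolidinediones also bind or whose activity they alter, had log2 ratios between -0.56 and 0.25 with pioglitazone and between -0.22 and 0.15 with darglitazone.

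NRF2 targets lay mostly above DMSO with both drugs, 19 of 22 measured genes with each. Of the 22, 5 were 2-fold higher with pioglitazone and 5 with darglitazone, 0 were 2-fold lower with either, and the medians were 0.67 and 0.53. HMOX1, haem oxygenase (chromosome 22, 35380361 to 35394214, plus strand), had 21 CPM with pioglitazone, 20.1 CPM with darglitazone and 2.18 CPM with DMSO, from 162, 659 and 21 counts. Its log2 ratios, 3.21 (2.61 to 4.0) and 3.15 (2.58 to 3.91), were the largest of the list for either drug. NQO1, a quinone reductase, had 110, 108 and 41 CPM in the same order, 2.68-fold and 2.63-fold the DMSO level.

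Iron storage genes belong to the same group. FTH1, the ferritin heavy chain, had 493 CPM with pioglitazone, 349 CPM with darglitazone and 156 CPM with DMSO, and FTL, the light chain, had 6285, 6207 and 4025 CPM. GCLM, which limits glutathione synthesis, had log2 ratios of 1.08 and 0.96 for pioglitazone and darglitazone, and SLC48A1, a haem transporter, had 0.94 and 1.13. PGD, of the pentose phosphate pathway, had 1.07 and 0.91. PIR, among the 12 protein-coding genes with the largest darglitazone ratio and known as an NRF2 target, had 9.31, 12.2 and 3.73 CPM with pioglitazone, darglitazone and DMSO.

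Direct comparison put the drugs close together here: the log2 ratio of darglitazone over pioglitazone was -0.06 (-0.31 to 0.20) for HMOX1 and -0.03 (-0.14 to 0.08) for NQO1. For FTH1 it was -0.50 (-0.55 to -0.44). These intervals hold counting error only, and the NRF2 ratios to DMSO rest on 1 DMSO library. In KG-1a, MOLM-14 and OCI-AML3 the NRF2 medians were 0.16, 0.06 and 0.29 with pioglitazone and 0.17, 0.13 and 0.48 with darglitazone.

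**Figure D2:**
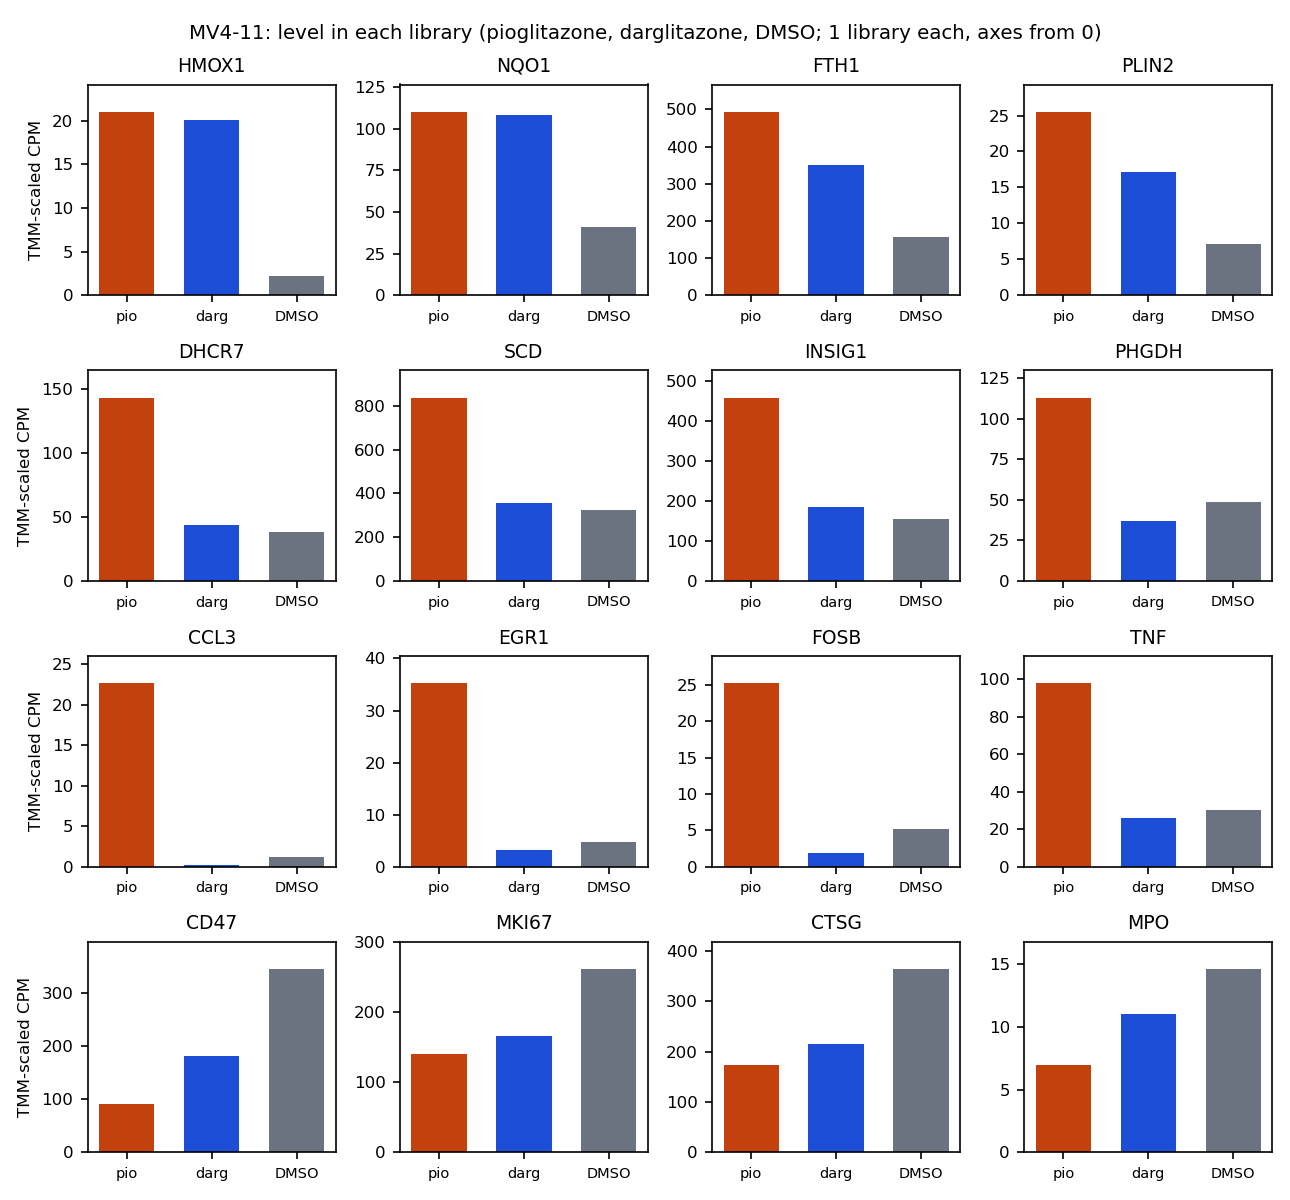
TMM-scaled CPM of 16 genes in the MV4-11 pioglitazone, darglitazone and DMSO libraries, 1 library each, with every axis starting at 0. HMOX1, NQO1, FTH1 and PLIN2 are above DMSO with both drugs, the genes in rows 2 and 3 stand apart in the pioglitazone library, as DHCR7 with 143, 43.7 and 37.8 CPM, and those in row 4 are highest with DMSO.

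Amino acid and stress response genes driven by ATF4 leaned above DMSO with pioglitazone, mostly by less than 2-fold. In 41 measured genes of the integrated stress response, 39 lay above 0, 8 were 2-fold higher, 0 were 2-fold lower and the median log2 ratio was 0.53. With darglitazone 0 were past 2-fold and the median was -0.05. PHGDH, the first enzyme of serine synthesis, had 113 CPM with pioglitazone, 37.1 CPM with darglitazone and 48.6 CPM with DMSO. CHAC1, which degrades glutathione, had 16.8, 8.6 and 6.94 CPM, and SESN2, a brake on mTORC1 signalling, had 23.9, 13.4 and 10.7 CPM.

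ASNS, asparagine synthetase, and TRIB3, a feedback inhibitor of ATF4, had pioglitazone log2 ratios of 0.82 and 0.53, against -0.16 and -0.37 for darglitazone. ADM2, a peptide hormone gene among the 12 largest pioglitazone ratios, had 16.8 CPM with pioglitazone, 4.73 CPM with darglitazone and 3.94 CPM with DMSO. Chaperone genes of the endoplasmic reticulum had medians of 0.12 and -0.07 over 21 genes with 0 past 2-fold for either drug. Heat shock genes had 0.02 and -0.10 over 18 genes, likewise with 0 past 2-fold. Scaling by total counts turned the pioglitazone heat shock median to -0.05.

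Immediate early genes, which respond within minutes to growth factor and stress signals, formed the other pioglitazone group. Of 25 listed, 15 were measured, by an average that includes the pioglitazone library and so favours members high there. Among these, 8 were 2-fold higher with pioglitazone and the median was 1.04, both partly set by that choice. With darglitazone 0 were higher, 1 was lower and the median was 0.02. EGR1, a zinc finger factor (chromosome 5, 138465490 to 138469315, plus strand), had 35.2 CPM with pioglitazone, 3.11 CPM with darglitazone and 4.77 CPM with DMSO. FOS had 142, 41.8 and 34.8 CPM in the same order, and ZFP36, which marks AU-rich messages for decay, had 110, 42.0 and 34.9 CPM.

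FOSB was the member that parted most between the drugs, with 25.2 CPM with pioglitazone, 1.92 CPM with darglitazone and 5.18 CPM with DMSO. Its log2 ratios were 2.26 (1.83 to 2.76) and -1.38 (-1.99 to -0.87), and FOSB was the 1 member 2-fold lower with darglitazone. Both EGR1 and FOSB reached the average of 5 CPM only through the pioglitazone library. MYC, in the same list, differed little, with log2 ratios of -0.03 and 0.07. BTG2, an antiproliferative gene that is both p53 and growth factor responsive, had 51.7, 11.5 and 12.5 CPM with pioglitazone, darglitazone and DMSO.

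Cytokine genes of the NF-kB list showed the same order. CCL3, a chemokine, had 22.6 CPM with pioglitazone, 0.153 CPM with darglitazone and 1.14 CPM with DMSO, from 175, 5 and 11 counts. TNF (chromosome 6, 31575567 to 31578336, plus strand) had 97.8, 26.2 and 30.3 CPM, a pioglitazone log2 ratio of 1.69 (1.5 to 1.89) and a darglitazone one of -0.21 (-0.40 to -0.01). The dendritic cell antigen CD83 and the NF-kB subunit RELB had pioglitazone ratios of 1.61 and 1.16. These 4 of 13 measured genes were 2-fold higher with pioglitazone, and CCL3 and CXCL8 were 2-fold lower with darglitazone. NFKBIA, the inhibitor that NF-kB induces, was not among them, at -0.28 and 0.02 (chosen after its values were seen). CXCL8 had 12.3, 2.87 and 6.84 CPM with pioglitazone, darglitazone and DMSO. CCL3, CXCL8 and CD83 reached the average of 5 CPM only through the pioglitazone library. The lower CCL3 level with darglitazone rests on 5 counts against 11 with DMSO.

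In OCI-AML3 cells the medians of both lists were larger with darglitazone than with pioglitazone, and above 0 with either drug. Over the members measured in MV4-11, the immediate early list had 0.31 with pioglitazone and 1.09 with darglitazone in OCI-AML3. The NF-kB list had 0.22 and 1.01 there, against 0.34 and 0.02 in MV4-11. Members were admitted by their average over the MV4-11 libraries, which favours genes high with pioglitazone in that line. In MOLM-14 and KG-1a the 4 medians of each line lay between -0.23 and 0.09. TNF itself had 80.7, 318 and 39.9 CPM with pioglitazone, darglitazone and DMSO in OCI-AML3. Each is a single library, and the OCI-AML3 pioglitazone library had a total of 1.1 M counts. With pioglitazone, a ribosomal RNA entry (FP671120.3) made up 23.5% of counts for KG-1a, whose protein-coding share was 55.6%, and 6.17% for OCI-AML3, against 0.472%, 0.542% and 0.0882% with pioglitazone, darglitazone and DMSO in MV4-11. Its part in the medians of those lines was not tested.

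**Figure D3:**
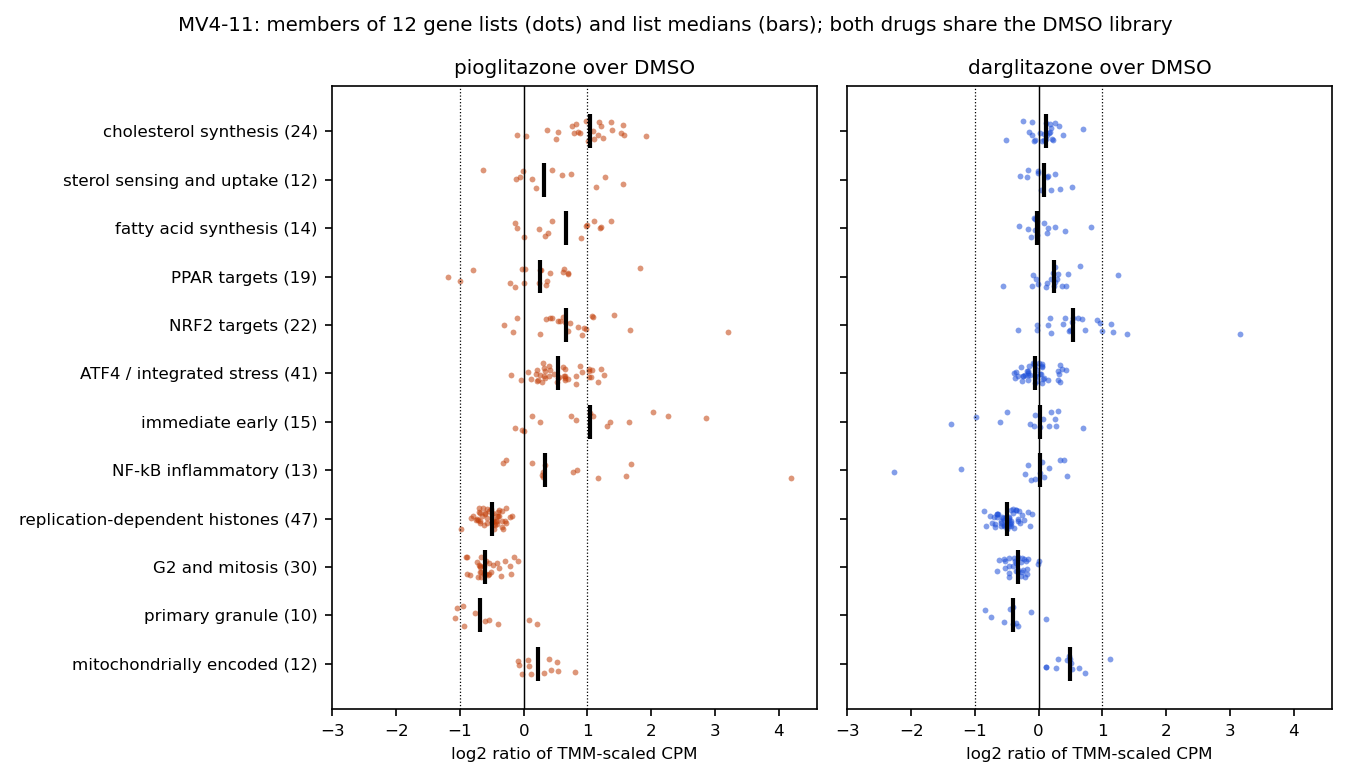
Log2 ratio to DMSO of each measured member (dots) of 12 gene lists in MV4-11, for pioglitazone (left) and darglitazone (right); black bars are list medians, dotted lines mark 2-fold, and numbers in brackets are the members measured. Cholesterol synthesis has medians of 1.05 and 0.12, NRF2 targets 0.67 and 0.53, and every histone and G2 and mitosis member lies below 0 in both panels.

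Proliferation genes lay below DMSO with both drugs, by less than 2-fold. All 30 genes of the G2 and mitosis list were below 0 with pioglitazone and with darglitazone, with medians of -0.61 and -0.32 and 0 members past 2-fold. MKI67, the proliferation antigen, had 140 CPM with pioglitazone, 166 CPM with darglitazone and 261 CPM with DMSO. CDC20, which switches on the ubiquitin ligase that starts anaphase (chromosome 1, 43358955 to 43363203, plus strand), had 86.3, 105 and 161 CPM, and KIF20A, a kinesin of cytokinesis, had 50.6, 65.7 and 90.4 CPM. The order was the same in each of these genes, lowest with pioglitazone and highest with DMSO. The promoters of CDC20 and MKI67 are those printed above, chosen among promoters that hold TTTGAA.

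Histone genes expressed in S phase gave the same direction with equal size. All 47 measured were below 0 with either drug, the median was -0.49 for both, and 0 were past 2-fold. H2BC14 had 114, 127 and 226 CPM with pioglitazone, darglitazone and DMSO, and H3C1 had 47.5, 45.7 and 82.3 CPM. Histone copies resemble each other, so single members are uncertain. Of 33 G1/S and replication genes, 30 were below 0 with each drug, with medians of -0.31 and -0.24. TYMS, thymidylate synthase, had 15.9, 18.7 and 30.5 CPM. Whether fewer cycling cells, less RNA per cell or the single DMSO library that both drugs share gave these ratios cannot be told apart here. The summed level of the histone list was 9146, 9199 and 12663 CPM, the 2 drug libraries close together and the DMSO library above them.

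Primary granule genes are made by immature granulocytic cells. Of 10 measured, 8 were below 0 with pioglitazone and 9 with darglitazone, with medians of -0.68 and -0.40. CTSG, cathepsin G, had 173 CPM with pioglitazone, 216 CPM with darglitazone and 364 CPM with DMSO, and MPO, myeloperoxidase, had 6.98, 11.0 and 14.6 CPM. These were the 2 genes 2-fold lower with pioglitazone, and 0 were with darglitazone. The proteases ELANE and PRTN3 had pioglitazone ratios of -0.95 and -0.94 and darglitazone ratios of -0.35 and -0.45. The monocyte and macrophage list was mixed, with a median of 0.16 for either drug and 4 of 13 members below 0 with pioglitazone and 6 of 13 with darglitazone. MS4A7 had 41.4, 25.9 and 18.4 CPM with pioglitazone, darglitazone and DMSO, and was the 1 member 2-fold higher with pioglitazone. S100A9, a calcium-binding protein of myeloid cells chosen after its values were seen, had 6.73, 9.4 and 16.9 CPM and was the 1 member 2-fold lower. The receptor CSF1R had 80.7, 56.2 and 45.5 CPM, and LYZ, lysozyme, which is also in the granule list, had 1449, 1609 and 2127 CPM.

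Surface antigens were divided. The adhesion receptor CD44 and the interleukin 3 receptor subunit IL3RA had pioglitazone log2 ratios of 0.77 and 0.72. CD47, which signals to macrophages not to engulf a cell (chromosome 3, 108043094 to 108091862, minus strand), had 91.2 CPM with pioglitazone, 181 CPM with darglitazone and 345 CPM with DMSO. Its ratios, -1.92 (-2.04 to -1.80) and -0.93 (-0.99 to -0.87), were the lowest of the 10 antigens measured. In KG-1a the CD47 level was 111, 303 and 206 CPM in the same order, and in MOLM-14 and OCI-AML3 it lay between 49 and 71.9 CPM in every library.

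Metabolic and survival genes differed in single members more than as lists. In 27 glycolysis and hypoxia genes the medians were 0.11 and -0.03, yet ALDOC, an aldolase, had 57.3, 31.5 and 18.4 CPM with pioglitazone, darglitazone and DMSO. VEGFA and the glucose transporter gene SLC2A3 had pioglitazone ratios of 1.03 and 1.09, against 0.08 and -0.15 for darglitazone. PMAIP1, which encodes the pro-apoptotic protein NOXA, had 14.2, 5.92 and 5.70 CPM. BCL2L11, which encodes BIM, had 6.6, 5 and 11.3 CPM, a darglitazone log2 ratio of -1.16.

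Transcripts of the mitochondrial genome lay higher with darglitazone, where all 12 measured were above 0 with a median of 0.49, against 9 of 12 and 0.22 with pioglitazone. MT-CO1, an oxidase subunit, had 781, 828 and 535 CPM with pioglitazone, darglitazone and DMSO. Mitochondrial ribosomal RNA took 8.41%, 9.87% and 6.83% of the counts in the same libraries, and its part in these ratios was not tested. Nuclear genes of the respiratory chain had medians of -0.11 and -0.03 over 47 genes. One of them, ATP5F1A, a subunit of ATP synthase, had 834, 1283 and 2967 CPM. STAT5A, STAT5B and CITED2, once linked to thiazolidinedione effects on chronic myeloid leukaemia stem cells, had log2 ratios between 0.12 and 0.40 with pioglitazone and between -0.14 and 0.56 with darglitazone. EPAS1 had 8, 82 and 26 counts with pioglitazone, darglitazone and DMSO, or 1.03, 2.5 and 2.69 CPM.

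Among the largest ratios outside the lists, TUBA1A, an alpha tubulin (chromosome 12, 49184796 to 49189324, minus strand), had 255 CPM with pioglitazone, 60.1 CPM with darglitazone and 47.3 CPM with DMSO. LINC03040, listed as protein-coding in the annotation used, had 32.2, 3.42 and 3.21 CPM. ARRDC3, an arrestin-domain gene that restrains receptor signalling and glucose uptake, was high with both drugs, at 10.6, 9.70 and 2.28 CPM. VWA5A had 8.02, 10.1 and 2.69 CPM. On the lower side, the fructose transporter gene SLC2A5 had 2.46 CPM with pioglitazone, 11.3 CPM with darglitazone and 9.43 CPM with DMSO.

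Several of the largest ratios come from readthrough entries or gene copies between which estimated counts can be split: BIVM-ERCC5, CORO7-PAM16, PEDS1-UBE2V1, STIMATE-MUSTN1, SLX1A, U2AF1 and the pair FAM156A and FAM156B. FAM156A had 12.7, 23.9 and 7.57 CPM and FAM156B 9.44, 1.19 and 14.4 CPM with pioglitazone, darglitazone and DMSO, so under darglitazone the pair lay on opposite sides of DMSO. These values are uncertain and no statement rests on them.

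The other lines allow the one test of this design: whether the drug response of MV4-11 differed from that of MOLM-14, OCI-AML3 and KG-1a. MV4-11 is assumed to vary like them, with 4 residual degrees of freedom. By edgeR's quasi-likelihood test with Benjamini-Hochberg adjustment, 1 of 15424 genes passed 0.05 for pioglitazone (0.00648%) and 1 for darglitazone (0.00648%), in both cases SCARNA2. Without adjustment, 533 genes had p under 0.05 for pioglitazone (221 higher, 312 lower in MV4-11) and 232 for darglitazone (116 and 116).

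SCARNA2, a small nuclear RNA of Cajal bodies, had 46.6 CPM with pioglitazone, 133 CPM with darglitazone and 1.66 CPM with DMSO in MV4-11, against 49.5 to 220 CPM in every library of the other lines. The MV4-11 DMSO library was thus the one that stood apart. The response differed by 4.88 on the log2 scale for pioglitazone (adjusted p = 0.0118, edgeR) and by 6.74 for darglitazone (adjusted p = 0.000423). It is 1 small RNA, and 28 small nucleolar RNAs had median log2 ratios of 0.64 and 0.41 for pioglitazone and darglitazone in MV4-11. Their part in this difference was not tested. Next by p were CA2 for both drugs, GTF2H2B and TUBA1A for pioglitazone. The TUBA1A response was larger in MV4-11 by 2.02 (adjusted p = 0.325, edgeR).

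For the lipid and NRF2 genes the test did not separate MV4-11 from the rest. The difference in the pioglitazone response was 0.51 for SCD, -0.03 for HMGCS1, 1.38 for DHCR7 and 1.76 for HMOX1, each with an edgeR adjusted p of 1. The cholesterol list had pioglitazone medians of 1.05 in MV4-11, 0.20 in MOLM-14, 0.48 in OCI-AML3 and 0.71 in KG-1a, and darglitazone medians of 0.12, 0.04, 0.10 and 0.31. Fatty acid synthesis had 0.67, 0.09, 0.30 and 0.17 with pioglitazone in the same lines, over the members measured in MV4-11.

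**Figure D4:**
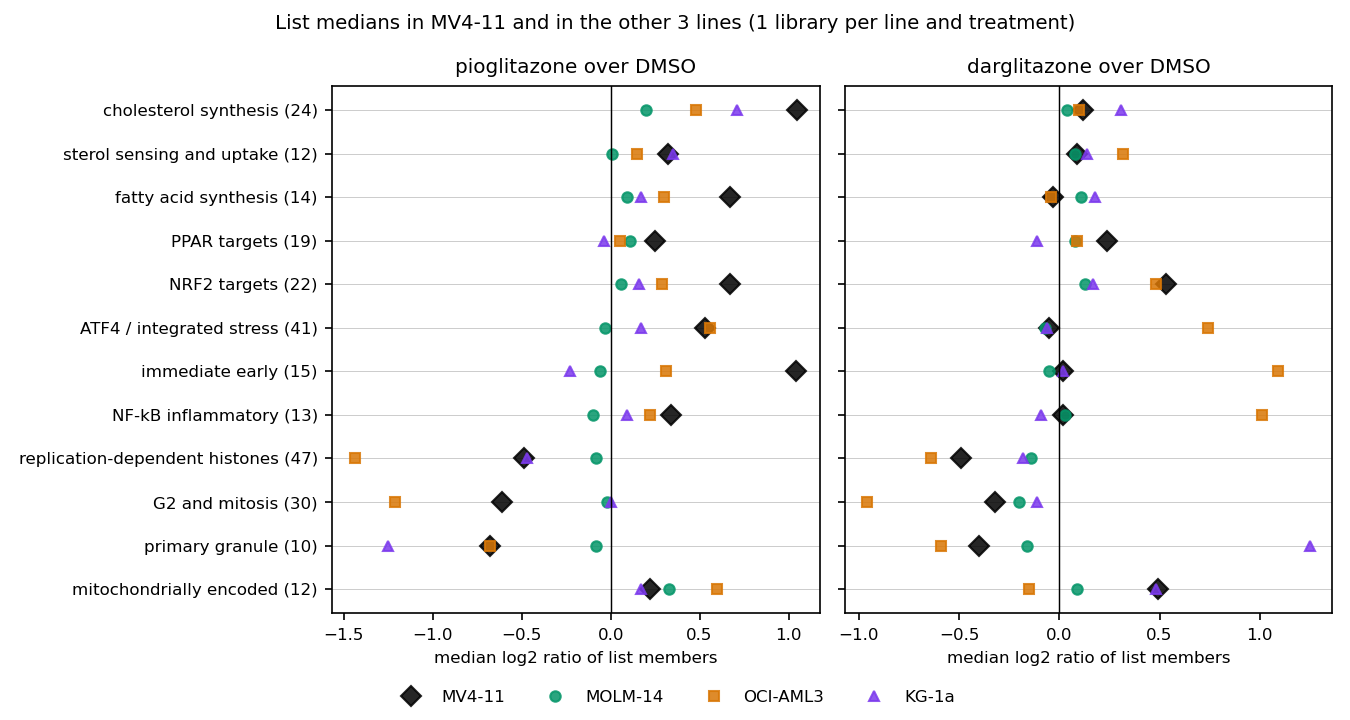
Median log2 ratio to DMSO of 12 gene lists in MV4-11 (black diamonds), MOLM-14 (green circles), OCI-AML3 (orange squares) and KG-1a (purple triangles), for pioglitazone (left) and darglitazone (right), with 1 library per line and treatment. Medians are over the members measured in MV4-11. Cholesterol synthesis with pioglitazone reads 1.05, 0.20, 0.48 and 0.71 in that order. The immediate early list stands high with pioglitazone in MV4-11 and with darglitazone in OCI-AML3.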

How the data were processed

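RNA was measured in 12 libraries, 3 of them from MV4-11. Per the labels' protocols, total RNA went through a stranded, ribosome-depleted preparation. The authors deposited estimated counts per transcript without normalization, and 89.8% of values above 0 were not whole (tolerance 1e-06). The submitters' processing notes name fastp, FastQC, STAR, featureCounts, DESeq2 and GRCh38, and no label or note names the tool that made the fractional values.

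Of 203027 transcripts, 202941 matched GENCODE release 29 (GRCh38), the source of gene coordinates. They were summed over 57865 genes and rounded. Genes were filtered with filterByExpr and scaled by TMM (edgeR 4.0.16, R 4.3.3). Log2 ratios within MV4-11 used a prior count of 2 and genes averaging at least 5 CPM, and single genes carry exact Clopper-Pearson intervals of the ratio, conditional on the sum of both counts. The line comparison used edgeR's robust quasi-likelihood F test with terms for line, each drug, and MV4-11 by each drug, adjusted by Benjamini-Hochberg. DESeq2 1.42.0 and limma 3.58.1 gave alternatives. The model was tested on simulated data. Cultures are not described as repeats.

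Genes were named by rule: the 12 protein-coding genes of largest ratio in each direction per drug, 6 between drugs, up to 4 members per list in the direction of its median, all members of the lipid lists, and preset genes. Members, the 35 lists and the rules were chosen with earlier results of these data known. Promoter sequences are RefSeq's (GRCh38.p14), with matches searched in the 250 bases before the start. Some list members are counted in list totals and medians but are not reported here one by one. Genes averaging under 5 CPM were left out of ratios, 5245 in number.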

Additional observations from a re-analysis of the deposited data

Results flagged for a closer look

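SCARNA2 met the criterion of a tested difference between groups for both drugs. Its response in MV4-11 exceeded that of the other 3 lines by 4.88 on the log2 scale for pioglitazone and by 6.74 for darglitazone, past edgeR's adjusted threshold in both cases. The level was 46.6 CPM with pioglitazone, 133 CPM with darglitazone and 1.66 CPM with DMSO in MV4-11. Both values rest on the low level of the single MV4-11 DMSO library. Leaving out the pioglitazone libraries of KG-1a and OCI-AML3, 0 genes passed for either drug.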

How the results depend on the processing

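Genes past 2-fold numbered 325 for pioglitazone, 111 for darglitazone and 234 for darglitazone against pioglitazone. They became 1274, 677 and 1038 at a mean of at least 1 CPM, 113, 27 and 72 at 20 CPM, and 2388, 1523 and 2119 with no such filter. Other scalings, prior counts, thinning and, chosen after seeing the data, leaving out 67 genes 10 times higher in another line or keeping protein-coding genes only, held each count within 1.5 times.

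Of 472 values of list medians under alternatives, 461 stayed within the members' median counting interval and 11 moved beyond it. Fatty acid synthesis with pioglitazone was 0.41 at 1 CPM and 0.94 at 20 CPM, and the immediate early list with darglitazone 0.12 at 20 CPM. With total counts, darglitazone medians were -0.10 for fatty acid synthesis, -0.18 for heat shock, -0.57 for histones, -0.05 for myeloid transcription factors and 0.08 for monocyte genes (0.04 at 1 CPM), and ribosomal proteins had 0.07 with pioglitazone and 0.10 with darglitazone. Of 170 named ratios past 2-fold, 10 fell under it in some alternative.

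The line comparison gave 1 gene per drug. DESeq2's Wald test gave 4 for pioglitazone and 6 for darglitazone, limma-voom 0 and 0, no low-count filter 18 and 19, and leaving out 1 other line 5 to 21 and 5 to 11. It gave 0 and 0 without the pioglitazone libraries of KG-1a and OCI-AML3, and 0 with one term for either drug. The cause was not tested. The labels carry no replicate numbers, and line, which ties each drug library to its DMSO library, was a term in the line comparison. With 7.53 M and 8.97 M counts, genes near 5 CPM had few counts in the pioglitazone and DMSO libraries.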

Other observations

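Other gene lists differed little between the drug libraries and DMSO. Cytosolic ribosomal protein genes had median log2 ratios of 0.14 with pioglitazone and 0.18 with darglitazone over 58 genes, and genes of ribosome assembly had -0.11 and -0.08 over 26, each with 0 past 2-fold. MHC class II genes, which present antigen, had 0.16 and 0.18 over 6 genes, and interferon-stimulated genes had -0.08 and 0.17 over 10. Genes of the lysosome and autophagy had 0.06 and 0.22 over 23, where total-count scaling turned the sign for pioglitazone. Iron handling had 0.38 and 0.07 over 15, with 2 members 2-fold higher with either drug. Targets of p53, the damage sensor, had -0.16 and -0.12 over 21, with 2 members 2-fold higher with pioglitazone. The lymphoid receptor gene IL7R had 18.1 CPM with pioglitazone, 4.42 CPM with darglitazone and 5.91 CPM with DMSO.

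A set of genes stood highest in the MV4-11 DMSO library and also varied between the KG-1a libraries, while the 6 libraries of MOLM-14 and OCI-AML3 held mostly lower values. PRRG3, a transmembrane protein gene on chromosome X, had 17.3 CPM with pioglitazone, 36.4 CPM with darglitazone and 280 CPM with DMSO in MV4-11, and 77.8, 107 and 2171 CPM in KG-1a. In OCI-AML3 it had 96.5, 0.665 and 0.687 CPM in the same order. ATP5F1A had 834, 1283 and 2967 CPM in MV4-11 and 956, 2040 and 3601 CPM in KG-1a, against 607 to 938 CPM in MOLM-14 and OCI-AML3. SDC3, a cell surface proteoglycan gene, had 6.47, 8.91 and 57.5 CPM in MV4-11 and 18.9, 29.5 and 415 CPM in KG-1a. SALL4, a stem cell transcription factor, had 2.98, 7.38 and 27.7 CPM in MV4-11 and 1.61, 9.63 and 12.9 CPM in KG-1a. In these 4 genes the order in both lines was DMSO highest and pioglitazone lowest. Other genes highest with DMSO in MV4-11 had another order in KG-1a: GPM6A, a membrane glycoprotein gene, had 28.6, 8.76 and 83.1 CPM with pioglitazone, darglitazone and DMSO in MV4-11 and 2.01, 257 and 22 CPM in KG-1a. CD47 and THBS1 were highest with darglitazone in KG-1a, at 303 and 8.79 CPM, against 206 and 6.79 CPM with DMSO. What these genes share was not tested.

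CA2, carbonic anhydrase, stood at 494 to 650 CPM in OCI-AML3 and at 0.129, 0.793 and 8.71 CPM with pioglitazone, darglitazone and DMSO in MV4-11.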
